A study of Mus musculus with 16 samples.

Results

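Expression of 10 immediate early and AP-1 genes was followed in mouse C17.2α cells exposed to strobilurin fungicides. The genes are Fos, Fosl1, Fosl2, Jun, Junb, Jund, Egr1, Ier2, Ier3 and Dusp1, taken by symbol from the 54658 genes of the count tables. C17.2α cells are a line of mouse neural cells engineered to overexpress TRα1, a receptor of thyroid hormone, and were grown here with charcoal-stripped serum and without added T3. All cultures were lysed after 24 h. The 2 DMSO libraries come from cells that received only the solvent. Azoxystrobin was given at 1000 nM (1 library), and picoxystrobin, pyraclostrobin and trifloxystrobin were each given at 30, 100, 300 and 1000 nM (1 library per concentration). The library labelled azoxystrobin at 100 nM held the same count as the second DMSO library for every gene and was left out, which leaves 15 distinct libraries. No concentration was replicated, so the 4 concentrations serve as the replicates of a compound, and their spread contains any effect of concentration. The labels do not say whether libraries come from separate cultures, and p-values then measure only the spread between these libraries.

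Immediate early genes are transcribed soon after a stimulus from factors that are already present in the cell, and several encode transcription factors themselves. Proteins of the Jun family pair with each other or with proteins of the Fos family to form AP-1, which binds DNA at short palindromic sites. Growth factors, stress and MAP kinase signaling are known to induce these genes, and their products include inhibitors that limit the same signaling. Strobilurins block electron transfer in respiratory complex III. Azoxystrobin and picoxystrobin carry a methoxyacrylate group, pyraclostrobin a methoxycarbamate and trifloxystrobin an oximinoacetate.

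Total counts ranged from 12292390 to 18188099 per library, and the counts of the 10 genes from 88 (Fos) to 3227 (Jun). Levels are in CPM, the counts relative to the library's total after TMM scaling. Thra, which encodes the overexpressed receptor, was at 52.7 to 86.5 CPM in the 15 libraries. Of the markers examined, 4 of 6 for neural progenitors, 4 of 4 for oligodendrocytes and 3 of 4 for fibroblasts and mesenchyme were above 1 CPM in DMSO, against 2 of 5 for neurons, 1 of 4 for microglia and 0 of 4 for astrocytes. The progenitor marker Pax6 was at 0.0302 CPM in DMSO, and Rbfox3 (neurons) and Aqp4 (astrocytes) had no count in any of the 15 libraries. The summed level of the fibroblast markers was 5168 to 5844 CPM in DMSO and 2293 to 5107 CPM in the exposed libraries. It was lowest with pyraclostrobin at 300 and 1000 nM (2580 and 2293 CPM). The collagen genes Col1a1 and Col1a2 fell with pyraclostrobin, Col1a1 by 0.90 on the log2 scale against DMSO (SE 0.195, edgeR adjusted p = 0.0393) and Col1a2 by 0.66 per 10-fold concentration (SE 0.132, adjusted p = 0.0368). With GC content and length corrected for, the values were -0.63 and -0.57, and neither was called (adjusted p = 0.114 and 0.0682). Col1a1 was also not called without DMSO 1, DMSO 2, or pyraclostrobin at 300 or 1000 nM (-1.003 to -0.78, adjusted p = 0.0878 to 0.359), and Col1a2 without pyraclostrobin at 30, 300 or 1000 nM (-0.90 to -0.59, adjusted p = 0.0921 to 0.583). The part of these markers in the results was not tested. In bulk RNA, fewer cells of a type and less RNA per cell cannot be told apart.

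Per kilobase of the longest transcript, the genes covered a wide range of levels. Ier3 was highest with a mean of 54.9 CPM per kb over the 15 libraries (range 42.6 to 87.0), followed by Jun at 50.5 CPM per kb (39.0 to 63.0), and these ranges overlapped. Jund came next at 29.4 CPM per kb (21.7 to 34.7), below every library of Jun. Fosl2, Junb, Fosl1, Dusp1 and Ier2 followed at 19.5, 17.4, 15.5, 13.6 and 11.2 CPM per kb, and each range overlapped that of its neighbour. Egr1 at 6.08 CPM per kb (3.95 to 10.1) and Fos at 4.69 CPM per kb (3.16 to 8.85) were lowest and overlapped each other. Among the genes of the Fos and Jun families, Jun and Jund had the highest levels per length and Fos the lowest. Between the DMSO libraries, the levels differed by a factor of 1.01 (Fosl2) to 1.24 (Egr1).

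The upstream sequence of 2 pairs of genes with similar profiles over the libraries was read. Over the 15 libraries, the log2 levels of Jun and Ier3 had a Pearson's r of 0.818 and those of Fos and Dusp1 of 0.788. These values describe the same libraries, in which concentration, depth and base composition are shared, and all 45 pairs among the 10 genes had a positive r (median 0.538, lowest 0.104 for Junb and Jund). RefSeq sequences (GRCm38.p6) upstream of the start site were found for 7 of the 10 genes, not for Fosl1, Egr1 and Ier2. The pair of Fos and Egr1, with a higher r (0.805) than Fos and Dusp1, could therefore not be read. The windows of Fos, at chr12:85473640-85473889 on the plus strand, and of Dusp1, at chr17:26508520-26508722 on the minus strand, are shown for their TGACG matches in capitals, the core of the cAMP response element. The Dusp1 window ends 47 bases before its RefSeq start, where an annotated exon begins.

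Fos: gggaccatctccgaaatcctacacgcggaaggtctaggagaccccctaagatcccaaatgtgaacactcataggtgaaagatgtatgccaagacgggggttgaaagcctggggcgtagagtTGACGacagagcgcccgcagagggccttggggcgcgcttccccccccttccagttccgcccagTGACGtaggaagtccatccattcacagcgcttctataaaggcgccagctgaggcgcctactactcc

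Dusp1: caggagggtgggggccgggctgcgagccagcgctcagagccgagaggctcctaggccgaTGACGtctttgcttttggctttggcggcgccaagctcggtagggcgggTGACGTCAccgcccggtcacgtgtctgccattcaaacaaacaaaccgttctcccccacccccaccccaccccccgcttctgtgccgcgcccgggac

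In Fos, TGACG began 129 and 66 bases before the start site. In Dusp1 a match began 191 bases before it, and the full palindrome TGACGTCA, which holds TGACG on both strands, began 143 bases before it. The search covered both strands. TGACG occurred in 17.9% and TGACGTCA in 1.62% of 27025 RefSeq windows of 250 bases. The windows of Jun, at chr4:95052223-95052472 on the minus strand, and of Ier3, at chr17:35821463-35821683 on the plus strand and cut 29 bases short of the RefSeq start for the same reason, held no TGACG. Each held 1 GC box (GGGCGG, capitals), a motif found in 32.9% of windows. TGACG was thus found for Fos and Dusp1 and not for Jun and Ier3, whereas the GC box was found in both pairs. Whether these motifs bear on the profiles was not tested. Over the full 250 bases, GC boxes were also found for Fos (1), Fosl2 (1) and Dusp1 (3). TGACG was also found for Junb (1), whose r was 0.289 with Fos and 0.168 with Dusp1.

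Jun: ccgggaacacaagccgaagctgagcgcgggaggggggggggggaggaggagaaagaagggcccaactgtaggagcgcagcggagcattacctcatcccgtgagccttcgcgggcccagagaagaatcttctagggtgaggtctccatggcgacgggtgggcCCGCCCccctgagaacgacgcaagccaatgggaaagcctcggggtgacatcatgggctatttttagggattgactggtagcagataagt

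Ier3: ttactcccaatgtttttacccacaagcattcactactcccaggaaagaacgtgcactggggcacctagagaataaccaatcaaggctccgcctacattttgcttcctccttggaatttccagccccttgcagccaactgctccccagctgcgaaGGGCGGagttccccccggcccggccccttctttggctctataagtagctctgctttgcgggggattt

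The letters TGANTCA of the classical AP-1 site (6.87% of windows) and the CArG box bound by SRF (1.40%) were not in any of the 7 windows. This does not show that the genes lack such sites, since only exact letters inside these windows were searched. The Jun window holds TGACATCA, a sequence that the search letters do not cover. Sites farther upstream were not searched, and Fosl1, Egr1 and Ier2 had no window. The Jund window precedes a RefSeq start that lies upstream of its GENCODE start. These matches are descriptions of the sequence.

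Comparisons were made with the quasi-likelihood test of edgeR on the 9758 genes with an average above 10 CPM, with Benjamini-Hochberg adjustment over all of them and a threshold of 0.05. Of the 10 genes, 9 passed this minimum, and Fos missed it with an average of 9.93 CPM on plain library totals. Fos was therefore read from the fit with edgeR's filterByExpr (16559 genes). None of the 9 genes was called in any of the 11 comparisons, either with edgeR or with DESeq2, and none of the 10 was called with filterByExpr. Among all tested genes, pyraclostrobin against DMSO called 2.12% and picoxystrobin against DMSO 0.041%. Azoxystrobin and trifloxystrobin against DMSO called 0.0% each. The slope on log10 concentration was called for 2.96% of genes with pyraclostrobin (2.65% with filterByExpr) and for 0.0% with picoxystrobin or trifloxystrobin, and a difference between the 3 slopes for 0.0%. At matched concentrations, pyraclostrobin differed from picoxystrobin in 0.0205% of genes and from trifloxystrobin in 0.0307%, and picoxystrobin from trifloxystrobin in 0.0%. At an unadjusted p-value under 0.05, these 9 genes gave 7 slopes for picoxystrobin, where 1103 of all tested genes (11.3%) did, and between 0 and 2 results in each of the other 10 comparisons. In those 10 comparisons, between 0.789% (trifloxystrobin slope) and 25.8% (pyraclostrobin against DMSO) of all tested genes did.

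**Figure D1:**
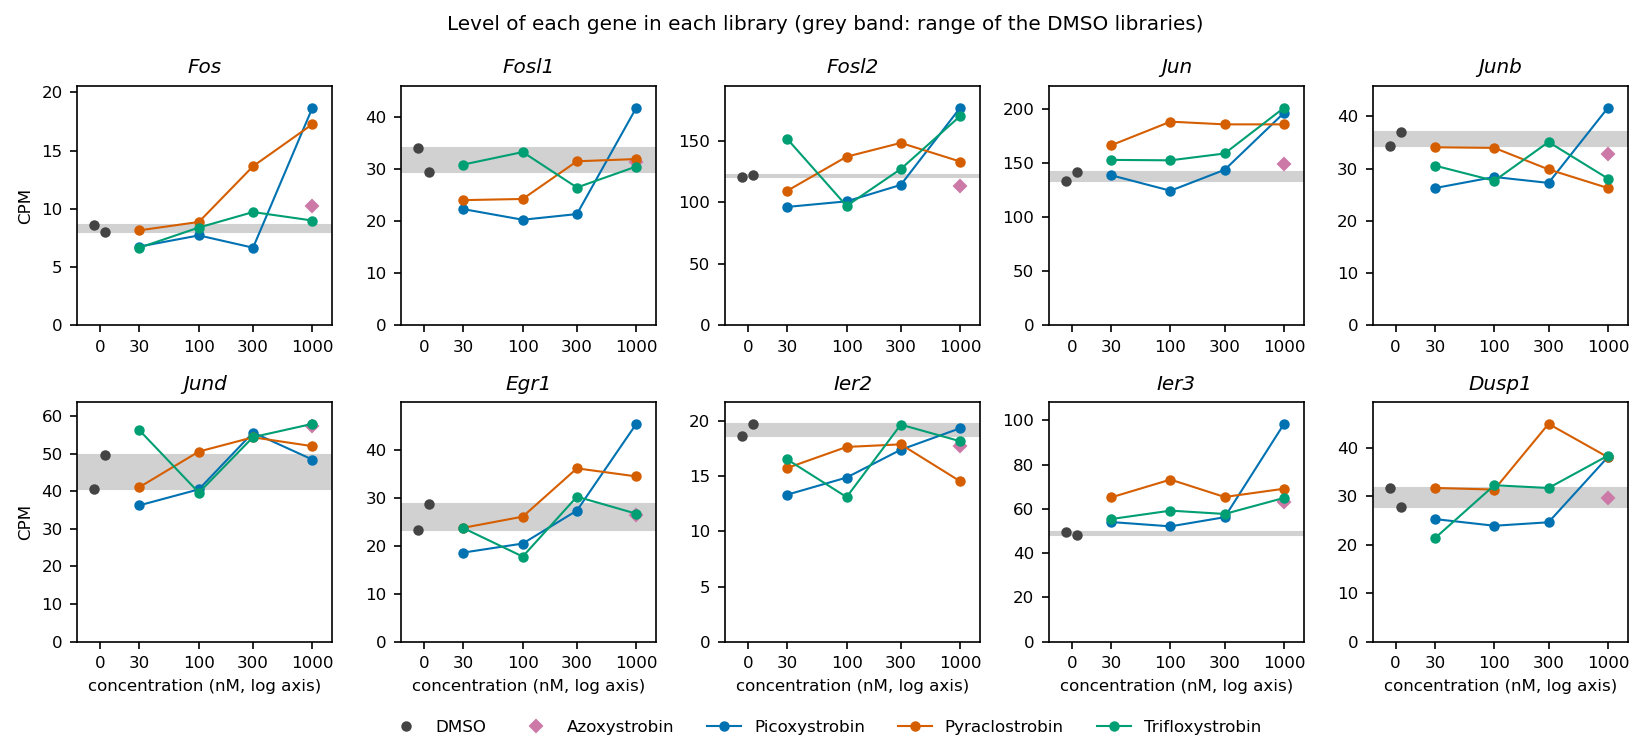
Level of each gene (CPM, linear axis from 0) against concentration (nM, log axis, with 0 for the 2 DMSO libraries), 1 point per library and a grey band over the range of DMSO. Ier3 lies above the band in each of the 13 exposed libraries, and picoxystrobin at 1000 nM is the highest library for 6 of the 10 genes.

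The Fos family encodes the AP-1 partners that cannot bind DNA without Jun. Fos was at 8.63 and 8.01 CPM in DMSO and at 10.2 CPM with azoxystrobin at 1000 nM. With picoxystrobin at 30, 100, 300 and 1000 nM, Fos was at 6.77, 7.72, 6.67 and 18.7 CPM. With pyraclostrobin at the same concentrations it was at 8.16, 8.88, 13.7 and 17.3 CPM. The 2 highest libraries of Fos were thus picoxystrobin and pyraclostrobin at 1000 nM, at 2.24 and 2.07 times the mean of DMSO. With trifloxystrobin Fos was at 6.67, 8.40, 9.72 and 9.00 CPM. For pyraclostrobin, the exact Poisson 95% intervals of counting alone were 11.9 to 15.6 CPM at 300 nM and 15.4 to 19.3 CPM at 1000 nM, above the intervals of both DMSO libraries (7.28 to 10.2 and 6.73 to 9.47 CPM). The slope of Fos per 10-fold concentration was 0.76 on the log2 scale for pyraclostrobin (SE 0.221, edgeR adjusted p = 0.0815) and 0.90 for picoxystrobin (SE 0.218, adjusted p = 0.420).

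Fosl1, which lacks the transactivation domain of Fos, was at 34.0 and 29.5 CPM in DMSO and 31.4 CPM with azoxystrobin. With picoxystrobin at rising concentration it was at 22.3, 20.3, 21.4 and 41.8 CPM. The 3 lower concentrations were the lowest of the 15 libraries and 1000 nM the highest. With pyraclostrobin Fosl1 was at 24.0, 24.3, 31.5 and 31.9 CPM, below both DMSO libraries at 30 and 100 nM and within their range at 300 and 1000 nM. With trifloxystrobin it was at 30.9, 33.3, 26.5 and 30.5 CPM. Fosl1 differed from DMSO by -0.29 on the log2 scale for picoxystrobin (SE 0.235, edgeR adjusted p = 0.490). Without the library at 1000 nM this value was -0.59 (adjusted p = 0.0104), in a fit that called 27.3% of all genes. The difference between picoxystrobin and trifloxystrobin was -0.26 (SE 0.176, adjusted p = 0.582) and became -0.48 without 1000 nM (adjusted p = 0.0452, 13.3% of genes called).

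Fosl2, the member of the Fos family with the most reads here, was at 121 and 122 CPM in DMSO and 113 CPM with azoxystrobin. It was at 96.2, 101, 114 and 177 CPM with rising picoxystrobin and at 109, 137, 148 and 133 CPM with pyraclostrobin. With trifloxystrobin it was at 151, 97.0, 127 and 169.8 CPM. These libraries had no order by concentration with trifloxystrobin, since 30 nM exceeded 300 nM, and Fosl2 lay above both DMSO libraries in 7 and below both in 6 of the 13 exposed libraries.

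Jun, the AP-1 subunit that binds DNA as a homodimer or with Fos, was at 133 and 141 CPM in DMSO and 149 CPM with azoxystrobin. With pyraclostrobin it was at 166, 188, 186 and 186 CPM, above DMSO at every concentration. With picoxystrobin Jun was at 139, 124, 144 and 196 CPM, and with trifloxystrobin at 153, 152, 159 and 201 CPM. Jun was above both DMSO libraries in 11 of 13 exposed libraries and below both only in picoxystrobin at 100 nM. In single exposed libraries, 33.6% to 48.1% of all tested genes lay above both and 31.4% to 43.2% below both. For counts short of all 13 libraries, here and for the other genes, no share of all tested genes was computed. All 4 pyraclostrobin libraries lay above both DMSO libraries for Jun and Ier3 (2 of 10), a pattern found in 21.0% of all tested genes. Jun differed from DMSO by 0.38 on the log2 scale for pyraclostrobin (SE 0.153, 95% interval 0.06 to 0.71, edgeR adjusted p = 0.141), and by 0.27 for trifloxystrobin (SE 0.153, adjusted p = 0.99995). After a correction of every library for GC content and transcript length, the first value was 0.51 (adjusted p = 0.0415, with 1.79% of genes called).

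Junb and Jund, the other Jun proteins, are weaker activators than Jun in many settings. Junb was at 34.3 and 37.0 CPM in DMSO and below both in 11 of the 13 exposed libraries. It was at 26.3, 28.4, 27.3 and 41.6 CPM with picoxystrobin, at 34.1, 34.0, 29.8 and 26.3 CPM with pyraclostrobin, and at 30.6, 27.7, 35.1 and 28.1 CPM with trifloxystrobin. Among the libraries of each compound, 1000 nM was thus the lowest for pyraclostrobin and the highest for picoxystrobin. The slopes were -0.26 (SE 0.138, edgeR adjusted p = 0.308) for pyraclostrobin and 0.38 (SE 0.133, adjusted p = 0.433) for picoxystrobin, and Junb had the lowest p-value of the 9 genes for a difference between the 3 slopes (edgeR adjusted p = 0.590). Against DMSO, Junb was at -0.22 for picoxystrobin (SE 0.168, adjusted p = 0.450), and at -0.40 without its library at 1000 nM (adjusted p = 0.0295, in the fit that called 27.3% of all genes). Jund was at 40.7 and 49.6 CPM in DMSO and between 36.3 and 57.9 CPM in the exposed libraries, with 8 above and 3 below both DMSO libraries.

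Egr1, a zinc finger factor induced by ERK signaling, was at 23.2 and 28.8 CPM in DMSO and 26.5 CPM with azoxystrobin. With picoxystrobin it was at 18.6, 20.4, 27.3 and 45.4 CPM. With pyraclostrobin it was at 23.7, 26.1, 36.1 and 34.5 CPM, and with trifloxystrobin at 23.7, 17.7, 30.2 and 26.7 CPM. In all 3 compounds, 300 and 1000 nM were above 30 and 100 nM. At 1000 nM, Egr1 was above both DMSO libraries with picoxystrobin and pyraclostrobin and between them with trifloxystrobin. The slope of Egr1 for picoxystrobin was 0.84 per 10-fold concentration (SE 0.180, 95% interval 0.45 to 1.23). It had the second smallest p-value of all tested genes, with an edgeR adjusted p of 0.433, and no gene was called. The pyraclostrobin slope was 0.41 (SE 0.186, adjusted p = 0.230) and the trifloxystrobin slope 0.24 (SE 0.186, adjusted p = 0.99999).

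Ier3 encodes a short-lived stress-induced protein linked to cell survival. It was at 49.7 and 48.2 CPM in DMSO and 63.2 CPM with azoxystrobin. It was at 54.02, 52.1, 56.2 and 98.4 CPM with picoxystrobin, at 65.1, 73.2, 65.3 and 69.1 CPM with pyraclostrobin, and at 55.4, 59.2, 57.7 and 64.9 CPM with trifloxystrobin. Ier3 was the only gene of the 10 with all 13 exposed libraries above both DMSO libraries, a pattern shared by 2.68% of all tested genes. Its difference from DMSO was 0.46 on the log2 scale for pyraclostrobin (SE 0.198, edgeR adjusted p = 0.163), 0.40 for picoxystrobin (SE 0.197, adjusted p = 0.285), 0.36 for azoxystrobin (SE 0.273, adjusted p = 0.99947) and 0.27 for trifloxystrobin (SE 0.197, adjusted p = 0.99995). These 4 values share the same 2 DMSO libraries. With no filter on low counts Ier3 was at 0.48 for pyraclostrobin (adjusted p = 0.0304, with 3.87% of genes called).

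Ier2, a nuclear protein of the same early response, was at 18.7 and 19.8 CPM in DMSO, and the exposed libraries ranged from 13.1 to 19.7 CPM, with none above and 11 of 13 below both DMSO libraries. Its difference from DMSO was between -0.26 (picoxystrobin, SE 0.163, edgeR adjusted p = 0.375) and -0.13 (azoxystrobin, SE 0.235, adjusted p = 0.99947).

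Dusp1, a phosphatase that inactivates MAP kinases, was at 31.8 and 27.9 CPM in DMSO and 29.7 CPM with azoxystrobin. With picoxystrobin it was at 25.3, 23.9, 24.7 and 38.2 CPM. With pyraclostrobin it was at 31.8, 31.4, 45.02 and 38.1 CPM, and with trifloxystrobin at 21.4, 32.3, 31.8 and 38.4 CPM. At 1000 nM these 3 compounds gave 38.1 to 38.4 CPM, above both DMSO libraries, while the highest of the 15 libraries was pyraclostrobin at 300 nM. The trifloxystrobin slope of Dusp1 was 0.48 (SE 0.173, edgeR adjusted p = 0.99999), with the 12th smallest p-value of all tested genes. The annotated Dusp1 gene overlaps Ergic1 on the opposite strand, Jun overlaps Junos, Junb overlaps Prdx2, Fosl1 overlaps Ccdc85b and Jund overlaps Gm11175 in the same way, and whether counting used the strand is not given in the sources used here.

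The libraries were then compared over the whole group. The median log2 ratio of the 10 genes to the mean of DMSO was -0.33, -0.29 and -0.12 with picoxystrobin at 30, 100 and 300 nM, and 0.45 at 1000 nM. With pyraclostrobin it was -0.10, 0.08, 0.35 and 0.28, with trifloxystrobin -0.09, -0.09, 0.15 and 0.24, and with azoxystrobin 0.01. The median of all tested genes stayed between -0.01 and 0.03 in the same libraries. In picoxystrobin at 1000 nM, 8 of the 10 genes were above and 0 below both DMSO libraries, while 43.5% of all tested genes were above. In picoxystrobin at 100 nM, 9 of 10 were below both DMSO libraries, while 42.3% of all tested genes were.

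**Figure D2:**
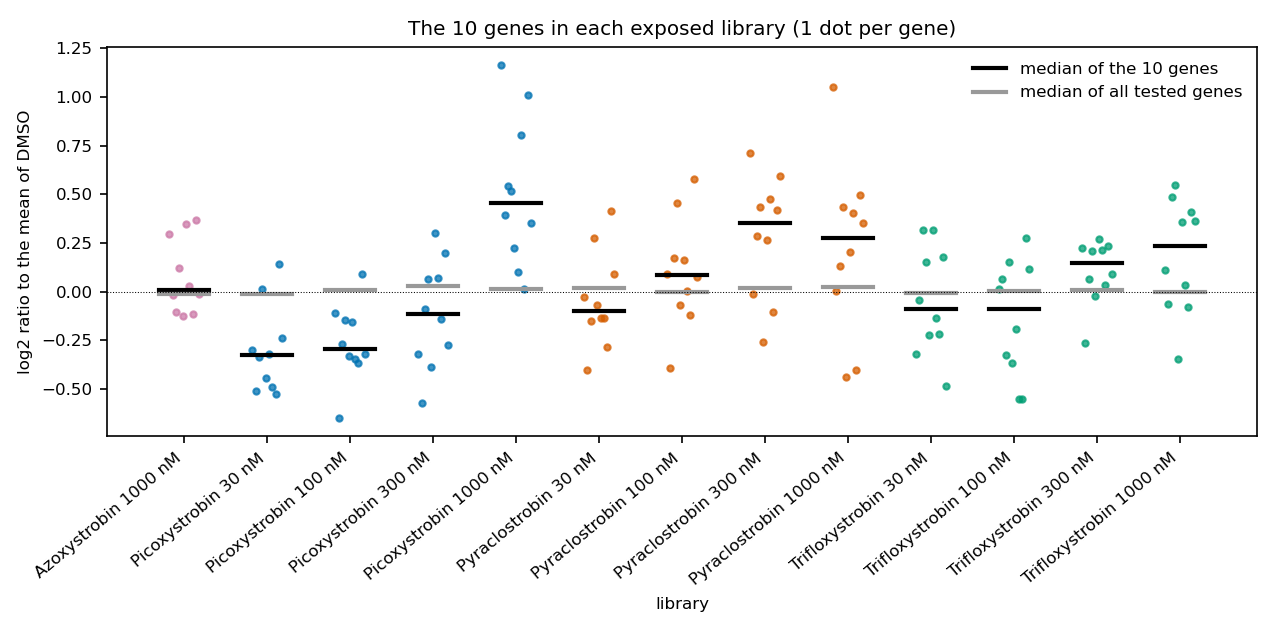
Log2 ratio of each of the 10 genes to the mean of DMSO in each exposed library (1 dot per gene), with the median of the 10 genes in black and of all tested genes in grey. The black line is at -0.33 with picoxystrobin at 30 nM and 0.45 at 1000 nM, and the grey line stays near 0.

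Picoxystrobin at 1000 nM was the highest of the 4 picoxystrobin libraries for 9 of the 10 genes, all but Jund, a pattern found in 45.1% of all tested genes. It was the highest of all 15 libraries for Fos, Fosl1, Fosl2, Junb, Egr1 and Ier3 (6 of 10), against 16.1% of tested genes. Picoxystrobin at 30, 100 and 300 nM lay below both DMSO libraries for Fos, Fosl1, Fosl2, Junb, Ier2 and Dusp1 (6 of 10), against 33.0% of tested genes. In the comparison of picoxystrobin with DMSO, 3 of 9 genes had a change above 0, and 6 of 9 after the GC and length correction. Jund went from -0.02 to 0.38, Junb from -0.22 to 0.06, Fosl1 from -0.29 to -0.10 and Ier2 from -0.26 to -0.01, and none was called. Pyraclostrobin at 300 and 1000 nM exceeded its libraries at 30 and 100 nM for Fos, Fosl1, Jund, Egr1 and Dusp1 (5 of 10), against 33.9%.

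All 9 tested genes had a positive picoxystrobin slope, with a median of 0.38 per 10-fold concentration, whereas the median of all tested genes was 0.0073. The slopes ranged from 0.32 (Jun and Jund) to 0.84 (Egr1), with Ier3 at 0.53 (SE 0.136) and Fosl2 at 0.54 (SE 0.182), and none was called (edgeR adjusted p = 0.433 to 0.445). Without the library at 1000 nM, the slopes of Fosl1, Dusp1, Jun, Ier3 and Junb were between -0.10 and 0.02, and that of Fosl2 was 0.21. Egr1 (0.52), Ier2 (0.35) and Jund (0.58) also had positive slopes over 30, 100 and 300 nM, and none was called. Without the library at 300 nM, Fosl1, Fosl2, Jun, Junb, Egr1 and Ier3 were called (adjusted p = 0.0247 to 0.0461), in a fit that called 15.2% of all genes. With no filter on low counts, Fos, Fosl1, Fosl2, Egr1 and Ier3 were called for picoxystrobin (1.59% of genes called) and Fos for pyraclostrobin (adjusted p = 0.00067, 4.04% of genes called).

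Base composition varied with the same libraries. Across genes, which are not independent replicates, the change from DMSO was correlated with GC content at r = -0.634, -0.704 and -0.738 with picoxystrobin at 30, 100 and 300 nM and at 0.202 at 1000 nM. The DMSO libraries, taken from their own mean, were at 0.402 and -0.402, opposite by construction. Pyraclostrobin at 1000 nM was at -0.376, azoxystrobin at -0.221 and trifloxystrobin between -0.390 and -0.0635. The longest transcripts of the 10 genes had 51.9% to 67.1% GC against a median of 48.9% in tested genes. With the correction for GC content and length, the picoxystrobin slopes were 0.65 for Egr1, 0.44 for Ier3, 0.43 for Fosl2 and 0.37 for Fosl1, and between 0.08 and 0.23 for Jun, Junb, Jund, Ier2 and Dusp1. All 9 remained positive and none was called (adjusted p = 0.338 to 0.897).

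**Figure D3:**
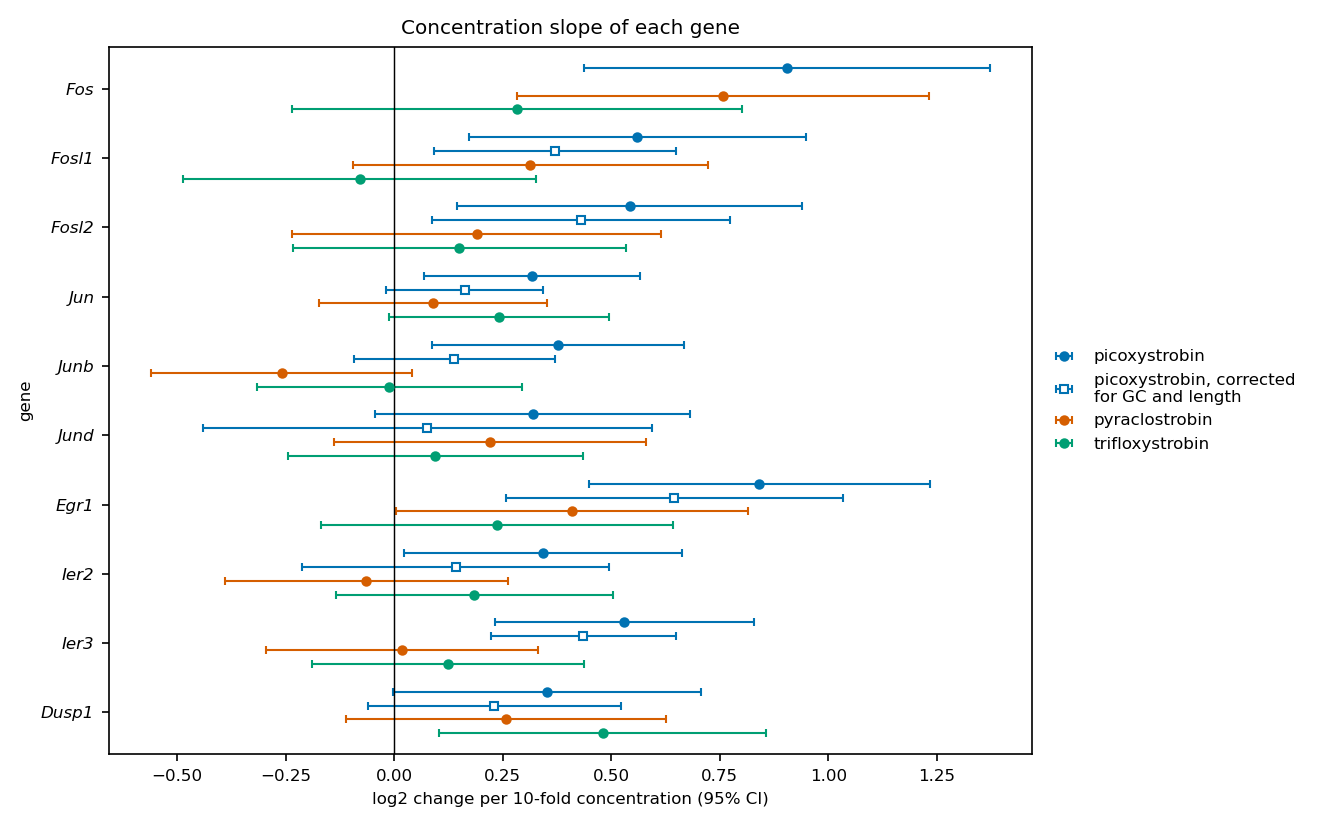
Slope of each gene in log2 units per 10-fold concentration with its 95% confidence interval, for picoxystrobin, pyraclostrobin and trifloxystrobin, and for picoxystrobin after correction for GC content and length (open squares, not fitted for Fos). Picoxystrobin slopes are all above 0, from 0.32 to 0.90, and the corrected ones are lower.

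Compounds were compared at the 4 matched concentrations, with concentration as a block, in 3 pairs. Pyraclostrobin exceeded picoxystrobin at each of 30, 100 and 300 nM for 9 of the 10 genes, all but Jund, against 30.8% of tested genes, and at 1000 nM only for Jund. The change from DMSO was correlated with GC content at r = -0.373, -0.0958 and -0.249 with pyraclostrobin at 30, 100 and 300 nM, nearer to 0 than in the picoxystrobin libraries. All 9 tested genes had a fitted difference above 0 between these compounds, and 6 of 9 after the GC and length correction, where Junb was at -0.13, Ier2 at -0.12 and Jund at -0.05. For Jun the differences were 0.26, 0.60, 0.37 and -0.08 on the log2 scale with rising concentration. The fitted difference of Jun was 0.29 (SE 0.0991, 95% interval 0.07 to 0.50, edgeR adjusted p = 0.367). For Dusp1 it was 0.39 (SE 0.146, 95% interval 0.07 to 0.72, adjusted p = 0.370). The other 7 tested genes differed by 0.01 to 0.15 between these compounds, with intervals from -0.34 to 0.51.

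Between pyraclostrobin and trifloxystrobin, Fos was higher with pyraclostrobin at all 4 concentrations, by 0.29, 0.08, 0.49 and 0.94 on the log2 scale, with a fitted difference of 0.44 (SE 0.209, 95% interval -0.01 to 0.89, edgeR adjusted p = 0.314). Egr1 and Ier3 were also higher with pyraclostrobin at all 4 concentrations, with fitted differences of 0.28 (SE 0.163, adjusted p = 0.373) and 0.20 (SE 0.139, adjusted p = 0.458). Between picoxystrobin and trifloxystrobin, Jun was lower with picoxystrobin at all 4 concentrations, with a fitted difference of -0.16 (SE 0.0989, adjusted p = 0.571). Compounds with the methoxycarbamate, methoxyacrylate and oximinoacetate groups showed no difference past the threshold in these genes. The intervals above bound only the average difference over the 4 concentrations, for the genes and pairs they are given for. Single concentrations went beyond them. Between pyraclostrobin and picoxystrobin, Dusp1 differed by 0.87 at 300 nM and -0.001 at 1000 nM, and Fos by 1.03 and -0.11. At 1000 nM, where all 4 compounds have 1 library each, Fos was at 18.7 CPM with picoxystrobin, 17.3 with pyraclostrobin, 10.2 with azoxystrobin and 9.00 with trifloxystrobin, and Ier3 was at 98.4, 69.1, 63.2 and 64.9 CPM, with no replicate to compare them.

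**Figure D4:**
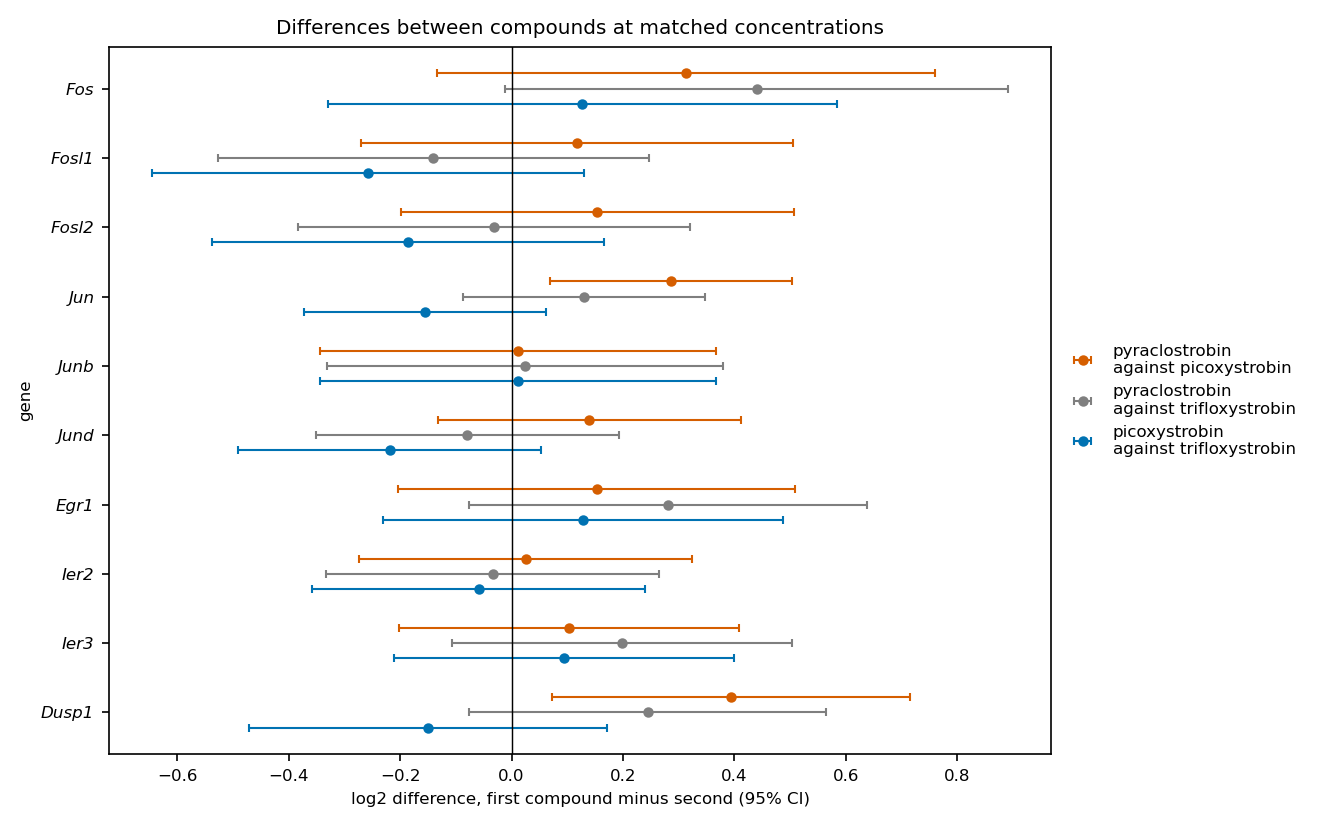
Difference between compounds in log2 units at matched concentrations (30, 100, 300 and 1000 nM), with its 95% confidence interval, for each gene. The intervals of Jun (0.07 to 0.50) and Dusp1 (0.07 to 0.72) for pyraclostrobin against picoxystrobin exclude 0 before adjustment, and all other intervals include it.

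Other genes of the same signaling were read from lists. Of 40 other immediate early genes, 38 were in the tables and 28 were tested. With edgeR, at most 8 of the 28 had an unadjusted p-value under 0.05, in the picoxystrobin trend, where 11.3% of all tested genes did. After adjustment, 1 rose and 1 fell in the concentration trend of pyraclostrobin, and 0 were called in each of the other 10 comparisons. The trend was called for 2.96% of all tested genes. DESeq2 called 4 of the 28 in that trend, adding Nr4a2 and Sgk1, where it called 7.6% of all tested genes, and Ier5l for pyraclostrobin against DMSO, where it called 9.44%. Ptgs2, the inducible cyclooxygenase, was at 36.0 and 33.4 CPM in DMSO and at 35.8, 34.9, 54.2 and 65.0 CPM with rising pyraclostrobin. It rose by 0.63 per 10-fold concentration (SE 0.111, adjusted p = 0.0315) and was not called without pyraclostrobin at 30, 300 or 1000 nM (adjusted p = 0.0986, 0.0761 and 0.583, with slopes of 0.60 to 0.87). Ier5l, a relative of Ier5, was at 33.6 and 26.9 CPM in DMSO and at 23.5, 21.7, 11.7 and 9.89 CPM with pyraclostrobin. It fell by 0.91 per 10-fold concentration (SE 0.204, adjusted p = 0.0406), and was not called once any of the 4 pyraclostrobin libraries was left out (adjusted p = 0.0701 to 0.583, with slopes of -1.15 to -0.85). With picoxystrobin Ptgs2 was at 35.3, 36.8, 43.8 and 51.9 CPM, and Ier5l at 17.7, 18.6, 14.8 and 23.9 CPM, below both DMSO libraries. With trifloxystrobin Ptgs2 was between 32.8 and 36.9 CPM and Ier5l between 21.3 and 30.2 CPM. A difference between the 3 slopes was not called for either (adjusted p = 0.585 for both).

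A list of 20 genes of ERK and JNK feedback had 14 tested, of which 1 was called, for pyraclostrobin against DMSO. Etv5, an ETS factor that growth factor signaling induces, was at 26.2 and 23.1 CPM in DMSO and at 18.4, 15.9, 14.1 and 16.5 CPM with pyraclostrobin. It fell by 0.62 against DMSO (SE 0.147, edgeR adjusted p = 0.0453). Pyraclostrobin against DMSO called 2.12% of all tested genes, and edgeR called no gene of this list or the next in any other comparison. Among 23 tested genes of the MAP kinase cascade and SRF, only Mkl2, a coactivator of SRF, was called. It was at 101 and 95.7 CPM in DMSO and at 79.4, 82.1, 69.6 and 64.7 CPM with pyraclostrobin, and fell by 0.43 against DMSO (SE 0.0973, adjusted p = 0.0418). All 4 pyraclostrobin libraries lay below both DMSO libraries for each gene, as in 20.1% of all tested genes. Mkl2 was also below both with the other compounds, at 87.7 CPM with azoxystrobin, 76.7 to 89.2 CPM with picoxystrobin and 87.1 to 90.3 CPM with trifloxystrobin, and 3.27% of tested genes had all 13 exposed libraries below both. Neither was called without DMSO 1, without DMSO 2, or without pyraclostrobin at 300 or at 1000 nM (adjusted p = 0.0983 to 0.395 for Etv5 and 0.0932 to 0.378 for Mkl2), or with filterByExpr (0.0579 for both). Etv5 was also not called after the GC correction (0.0700). In these fits the change of Etv5 was -0.52 to -0.72 and that of Mkl2 -0.37 to -0.48. In the 2 lists, at most 4 and 6 genes had an unadjusted edgeR p-value under 0.05 in a comparison. Both counts were reached for pyraclostrobin against DMSO, where 25.8% of all tested genes had one. The count of 4 was also reached in comparisons where 11.7% to 21.3% did. DESeq2 called Phlda1 and Map2k1 for picoxystrobin (2.1% of all tested genes) and Map2k1 for pyraclostrobin beside Etv5 and Mkl2 (9.44%). It also called the pyraclostrobin slopes of Spry1 and Mapk9 (7.6%). The genes called by DESeq2 alone, here and in the other lists, were named after their values were seen.

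Of 13 other AP-1 and bZIP partners, 7 were tested and 0 were called by edgeR. At most 3 had an unadjusted edgeR p-value under 0.05, for pyraclostrobin against DMSO, where 25.8% of all tested genes did. DESeq2 called Atf7 for pyraclostrobin, against DMSO (9.44% of all tested genes) and in the trend (7.6%). Atf3, a stress-induced partner of Jun, was at 9.24 and 11.8 CPM in DMSO and at 13.4, 13.8, 17.7 and 23.8 CPM with picoxystrobin, and differed from DMSO by 0.69 (SE 0.268, edgeR adjusted p = 0.204). It was at 13.9 CPM with azoxystrobin, at 12.5, 16.6, 20.8 and 18.5 CPM with pyraclostrobin and at 18.1, 10.9, 15.2 and 19.3 CPM with trifloxystrobin, so that 12 of the 13 exposed libraries were above both DMSO libraries. The share of all tested genes with such a count was not computed. Fosb was at 1.21 to 2.63 CPM and was not tested. Of 12 known AP-1 targets, 8 were tested and 0 were called by edgeR or by DESeq2. At most 2 had an unadjusted edgeR p-value under 0.05, in the picoxystrobin and pyraclostrobin trends, where 11.3% and 21.3% of all tested genes did. The median picoxystrobin slope of the 8 targets was 0.20, against 0.0073 in all tested genes. That median was 0.18 for the feedback list and 0.14 for the other immediate early genes. For MAP kinase and SRF it was 0.06, and for AP-1 partners -0.0022. These lists had median pyraclostrobin changes from DMSO of -0.11 (other immediate early genes), -0.06 (feedback), -0.11 (MAP kinase and SRF), -0.11 (AP-1 partners) and 0.08 (targets), where the 10-gene group had 0.11 over its 9 tested genes and all tested genes 0.0028.

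The genes whose log2 levels followed those of Fos, Egr1 and Dusp1 most closely over the 15 libraries were sought among all tested genes, as these 3 varied most. For Fos they were Abhd4 (r = 0.948), Rad51d (r = 0.940) and Cdkn2d (r = 0.940). For Egr1 they were Tor3a (r = 0.912), Tubb4a (r = 0.904) and Ctsh (r = 0.901), and for Dusp1 Tmem177 (r = 0.970), Cd81 (r = 0.913) and Aif1l (r = 0.910). All values of r come from the same 15 libraries, which share concentration, depth and base composition, and none of the genes listed here belongs to the lists of immediate early or MAP kinase genes above.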

How the data were processed

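The authors made libraries of total RNA (SENSE kit), sequenced them from a single end, counted reads per gene with htseq-count and deposited raw counts, without normalization or pooling. The submitters' processing notes name Bowtie2 2.3.2.2 and mm10, and the strand setting and annotation are not given in the sources used here. The 10 genes and all lists were chosen with earlier results of these data known. Counts of 15 libraries (12292390 to 18188099 per library) were normalized by TMM and tested with edgeR 4.0.16 (R 4.3.3), on genes averaging over 10 CPM, with 1 level per compound, with slopes on log10 concentration, or at matched concentrations with concentration as a block. The study's methods used DESeq2, and DESeq2 1.42.0 served as an alternative. Standard errors were derived from the F statistic. The named genes are the 10 members, up to 4 called genes per list and comparison with the largest change, and the 3 best-correlated genes of the 3 most variable members. Thra and cell type markers are named as well. Atf3, which neither edgeR nor DESeq2 called, and Fosb, which was not tested, fall outside this rule. So do the genes called by DESeq2 alone. DMSO replicate numbers follow the labels. Positions, GC content and lengths came from GENCODE M21 (GRCm38, 54092 symbols matched). Code was tested on simulated data. Poisson intervals cover counting error only. The lowest member count (88) limits Fos most. Alternatives were tried with DESeq2, RLE size factors, 3 other filters, a GC and length correction (natural splines, 4 degrees of freedom each), 2 concentration levels, no block, all 16 libraries, plain library totals and each library left out. The minimum of 5 CPM was chosen after seeing the data.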

Additional observations from a re-analysis of the deposited data

Results flagged for a closer look

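In 7 of 30 groups of 4 libraries (10 genes in 3 compounds), 1 library stood apart from the other libraries of its compound by Dixon's test at the 95% level. Chance gives about 1 in 20 for a single group. The 10 genes share the same libraries, so the 30 groups are not independent and their count cannot be set against that rate. The share of all tested genes that meet this rule was not computed. The 4 libraries of a compound differ in concentration, so the test measures distance, not a failed library. Picoxystrobin at 1000 nM was the high library in 5 of the 7 groups. It was at 18.7 CPM for Fos (next 7.72 CPM), 41.8 CPM for Fosl1 (next 22.3 CPM), 41.6 CPM for Junb (next 28.4 CPM), 98.4 CPM for Ier3 (next 56.2 CPM) and 38.2 CPM for Dusp1 (next 25.3 CPM). For Jun, pyraclostrobin at 30 nM was low at 166 CPM (next 186 CPM) and trifloxystrobin at 1000 nM was high at 201 CPM (next 159 CPM).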

How the results depend on the processing

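No alternative turned the direction of a called value. Of 1154 member values under alternatives, 17 were newly called and 75 that were not called changed sign. The members called, 0 in each comparison, became 1 for pyraclostrobin against DMSO with no filter (Ier3) or with the GC and length correction (Jun), 5 and 1 for the trends of picoxystrobin and pyraclostrobin with no filter, 0 to 6 for the picoxystrobin trend, 0 to 2 for picoxystrobin against DMSO and 0 to 1 for picoxystrobin against trifloxystrobin with 1 library left out. The cause was not tested. All genes called moved more. DESeq2 called 1 for azoxystrobin, 205 for picoxystrobin and 921 for pyraclostrobin against DMSO, 1 and 742 for the trends of picoxystrobin and pyraclostrobin, 15 for their equality, 17 for pyraclostrobin against picoxystrobin, and 225 and 12 for pyraclostrobin and picoxystrobin against trifloxystrobin. With no filter the counts were 210 and 1195 against DMSO for picoxystrobin and pyraclostrobin, 491 and 1246 for their trends, 328 for equality, 410 for pyraclostrobin against picoxystrobin, and 808 and 28 against trifloxystrobin. With filterByExpr they were 0 and 104 against DMSO and 439 for the pyraclostrobin trend. With the GC correction they were 0 for picoxystrobin against DMSO and 848 for the pyraclostrobin trend. With 2 concentration levels and no such correction, the trend called 757. All 16 libraries gave 9 and 372 for picoxystrobin and pyraclostrobin against DMSO. With 1 library left out, they ranged from 0 to 2664 and 0 to 942 against DMSO, 0 to 1482 and 0 to 83 for the trends, 0 to 2 for equality, 0 to 3 for pyraclostrobin against picoxystrobin, and 0 to 234 and 0 to 1293 against trifloxystrobin. Without concentration as a block, pyraclostrobin against trifloxystrobin called 1 gene in place of 3, and no member call changed. The block pairs exposed libraries by concentration, and nothing in the labels pairs them with DMSO. On plain library totals, 18 of 150 member levels moved by over 1 SD of DMSO, by factors of 0.920 to 1.03. RLE size factors and the minimum of 5 CPM, chosen after seeing the data, changed no member's call. Azoxystrobin has 1 library and could not be left out.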
